A study of Mus musculus with 26 samples.

Results

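The REV-ERB and ROR receptors are nuclear receptors that tie the circadian clock of the liver to metabolism, and 3 of their genes are described here. Nr1d1 encodes REV-ERBα, Nr1d2 encodes REV-ERBβ and Rora encodes RORα. They were taken by name from the raw count table, 3 of its 36883 gene names, and Arntl, which encodes the clock activator BMAL1, was followed beside them. The material was liver RNA from 26 Eu-MYC mice, a line in which a MYC transgene is driven in the B lineage by the immunoglobulin heavy chain enhancer, so every group carried the transgene and no group was without it. All mice had spent 8 weeks under their lighting, either repeated days of 12 h light and 12 h dark (12:12) or chronic jet lag. The 4 groups were 8 females and 6 males (numbers 1 to 6) under 12:12, and 8 females and 4 males (numbers 5 to 8) under jet lag. Age, disease state, the shift schedule and the hour of collection are not stated in the labels, and the labels number the animals without stating litters or days.

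REV-ERBα and REV-ERBβ are repressors that need heme as a ligand and recruit the NCoR corepressor with HDAC3, while the ROR proteins activate from the same DNA element, the half-site AGGTCA after an A/T-rich stretch. Arntl is their best-known shared target. BMAL1 with CLOCK or NPAS2 in turn drives Nr1d1 and Nr1d2 through E-boxes, which closes a loop in which the REV-ERB transcripts and Arntl peak at opposite times of day.

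Library totals ran from 45364557 to 50242019 counts, and levels are given as CPM, the count scaled by these totals. The floor for a count of 0 was set at 3 counts, which is 0.0661 CPM or less in each library and speaks of counting error alone. No member was at 0 in any library. Albumin, the hepatocyte marker, took 10% to 22.1% of the counts. The Cd79a transcript, which encodes a part of the B cell receptor, was at 8 CPM or more in 8 libraries, namely numbers 6 and 7 of the 12:12 females, 2, 5 and 6 of the jet lag females, 3 and 5 of the 12:12 males and 8 of the jet lag males. One library stood apart in another way. In jet lag male 7, genes with long exons were low and genes with short exons were high, with a Spearman rho of -0.52 across 14662 genes between exon length and the level relative to the median library. The other libraries ran from -0.23 (12:12 female 6) to 0.19, and genes are not independent replicates.

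Promoter stretches of both REV-ERB genes are shown first, with a stretch of Arntl that matches the half-site. The results below turn on how Nr1d1, Nr1d2 and Arntl move against each other. The stretches come from RefSeq on GRCm38.p6 and are read 5′ to 3′ on the gene's strand. For Nr1d1 and Nr1d2 they are the 250 bases before the annotated start, and for Arntl the 30 bases around the match, just after a start. Capitals mark the half-site AGGTCA, with its preceding T in Arntl.
Nr1d1, chr11:98775378-98775627, minus strand: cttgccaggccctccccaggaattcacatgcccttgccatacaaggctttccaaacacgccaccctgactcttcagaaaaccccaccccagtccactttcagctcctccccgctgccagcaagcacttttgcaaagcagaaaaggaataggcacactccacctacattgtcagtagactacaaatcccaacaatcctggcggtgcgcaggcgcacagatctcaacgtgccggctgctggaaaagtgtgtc
Nr1d2, chr14:18239107-18239356, minus strand: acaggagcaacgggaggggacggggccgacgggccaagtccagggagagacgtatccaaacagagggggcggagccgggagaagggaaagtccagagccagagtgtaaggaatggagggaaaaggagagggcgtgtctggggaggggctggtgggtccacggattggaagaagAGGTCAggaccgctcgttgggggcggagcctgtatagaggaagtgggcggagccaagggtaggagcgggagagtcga
Arntl, chr7:113207530-113207559, plus strand: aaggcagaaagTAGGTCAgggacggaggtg

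Both strands were searched for the half-site AGGTCA, for its longer form with a leading T, for the E-box CACGTG and for the D-box TTATGTAA, in windows from 250 bases before to 50 after each annotated start. The longer form always overlaps the half-site. Of 32851 windows, 16.3% held the half-site, 2.61% its longer form, 7.15% the E-box and 0.938% the D-box. The Nr1d2 window held 1 AGGTCA, at -77 from the start (chr14:18239178-18239183), and none of the others. The second of 2 Arntl windows held TAGGTCA at +30 (chr7:113207541-113207547). The Nr1d1 and Rora windows held none of the 4 sequences. A match is a description of the letters only, and a window without one says nothing about elements elsewhere in the gene.

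Nr1d1 lies on the minus strand at chr11:98767932-98775377, and its last 1075 bases overlap Thra, the thyroid hormone receptor α gene on the other strand. Libraries were stranded, per the labels, but how strand was used in counting is not given in the sources used here, so reads of the overlap could have been counted for either gene. Thra ran from 5.80 to 18.5 CPM. Nr1d2 lies at chr14:18204056-18239106 on the minus strand. Rora spans chr9:68653404-69388246 on the plus strand, and 3 non-coding genes that overlap its span and that the table lists (Gm31325, 9530091C08Rik and Gm31262) stayed at or under 0.19 CPM. The exons of all annotated transcripts covered 3077 bases for Nr1d1, 5409 for Nr1d2 and 13071 for Rora.

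Per kilobase of exon, Nr1d1 was the most abundant of the 3 in liver and Rora the least. The median over the 26 libraries was 29.1 CPM per kb for Nr1d1, 8.69 for Nr1d2 and 1.19 for Rora, and the order Nr1d1, Nr1d2, Rora held in all 26 libraries.

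The main question was whether the receptor transcripts differed after jet lag lighting. Nr1d1 was on average higher under jet lag and Nr1d2 lower, Rora had the smallest difference, and none of the 3 differences passed the test over all genes. Calls were made with edgeR's quasi-likelihood test at an adjusted p of 0.05, over 16892 genes and all 26 libraries. Over both sexes 132 genes were called, 0.781% of those tested, with 75 higher and 57 lower, and 0 of the 3 members were among them. At an unadjusted p of 0.05, 1353 genes passed and Nr1d2 was one of them. As nothing in the labels describes how the animals were housed or sampled together, the p-values measure only the spread between these samples.

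**Figure D1:**
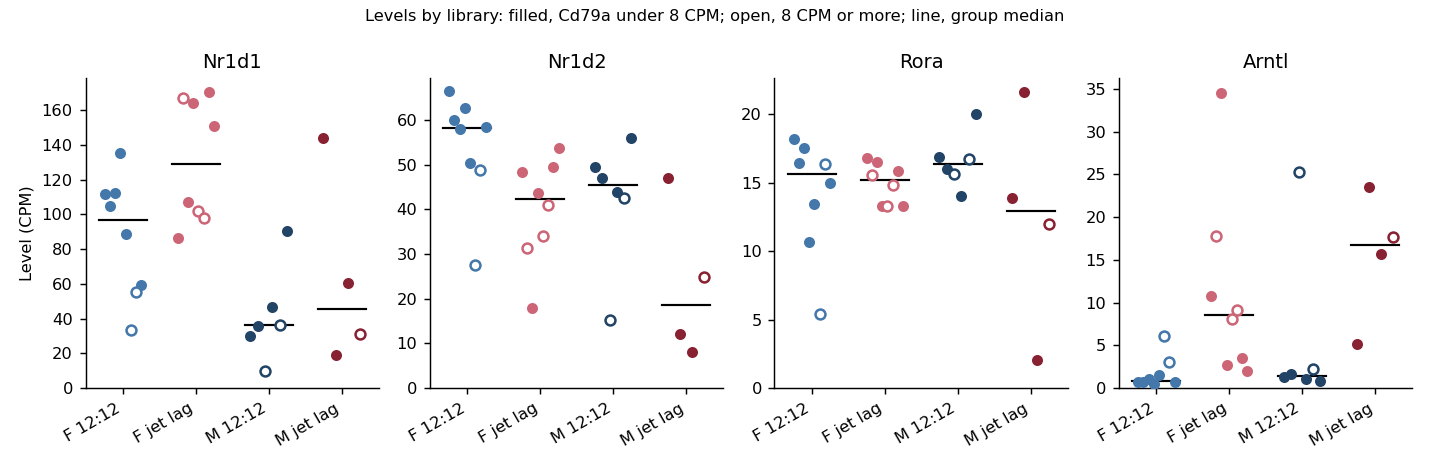
Level of Nr1d1, Nr1d2, Rora and Arntl in each library (y axis, CPM, starting at 0) for females (F) and males (M) under 12:12 and jet lag lighting. Each point is a library, open points have Cd79a at 8 CPM or more, and the line is the group median. Jet lag females reach 170 CPM of Nr1d1 against 135 CPM in 12:12 females, while the lowest Nr1d2 values (7.95 and 12.1 CPM) are 2 jet lag males.

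Nr1d1 ran from 33.3 to 135 CPM in 12:12 females, with a median of 96.9, and from 86.4 to 170 CPM in jet lag females, with a median of 129. In 12:12 males it ran from 9.75 to 90.2 CPM, with a median of 36.2, and the jet lag males had 144 (number 5), 18.8 (number 6), 60.4 (number 7) and 31.0 CPM (number 8). The groups overlapped in both sexes: 9 of 12 jet lag libraries lay above the 12:12 median of their sex and 5 of 12 above its highest library. The means ± SD were 87.7 ± 35.0 and 131 ± 35.6 CPM in females (n = 8 each) and 41.5 ± 26.8 (n = 6) and 63.5 ± 56.3 CPM (n = 4) in males. The fitted log2 difference, jet lag minus 12:12, was 0.54 (SE 0.30, edgeR adjusted p = 0.745). It was 0.52 (SE 0.39) in females and 0.58 (SE 0.50) in males. Both the male value and that over both sexes leaned on jet lag male 5, without which they were -0.10 and 0.32.

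Nr1d2 showed the opposite sign. It ran from 27.4 to 66.3 CPM in 12:12 females (median 58.2) and from 17.8 to 53.6 CPM in jet lag females (median 42.3). In 12:12 males it ran from 15.1 to 55.8 CPM (median 45.4), and the jet lag males had 46.9, 12.1, 7.95 and 24.9 CPM for numbers 5 to 8. Of the 12 jet lag libraries 11 lay below the 12:12 median of their sex, the exception being male 5, and 3 of 12 lay below its lowest library. The groups still overlapped. The means ± SD were 53.9 ± 12.2 against 39.9 ± 11.7 CPM in females (n = 8 each) and 42.3 ± 14.1 (n = 6) against 23.0 ± 17.5 CPM (n = 4) in males. The fitted log2 difference was -0.66 (SE 0.23, edgeR adjusted p = 0.297), with -0.48 (SE 0.29) in females and -0.97 (SE 0.39) in males. Without jet lag male 5 the male value was -1.55, and without number 7 it was -0.72. In the authors' deposited table, from DESeq2, the log2 value for jet lag over 12:12 was -0.59 for Nr1d2 (adjusted p = 0.348), 0.62 for Nr1d1 (adjusted p = 0.637) and -0.16 for Rora.

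Rora differed little between the medians of the females and was lower by median in jet lag males. It ran from 5.41 to 18.2 CPM in 12:12 females (median 15.7), from 13.3 to 16.8 CPM in jet lag females (median 15.2) and from 14.0 to 19.99 CPM in 12:12 males (median 16.4). The jet lag males spanned a wider range than any other group, with 13.9, 21.6, 2.06 and 12.0 CPM for numbers 5 to 8 (median 12.9). They thus held both the highest and the lowest Rora level of the series. Of the 4, 3 lay below every 12:12 male and the other above every one, while among the 8 jet lag females 5 lay below the 12:12 median and none outside the 12:12 range. The fitted log2 difference over both sexes was -0.14 (SE 0.22, edgeR adjusted p = 0.999), with 0.03 (SE 0.27) in females and -0.44 (SE 0.35) in males. The male value was -0.10 without number 7 and -0.96 without number 6.

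The 2 libraries with the lowest Rora, jet lag male 7 at 2.06 CPM and 12:12 female 6 at 5.41 CPM, were also the 2 in which long genes were lowest. In jet lag male 7 the 20% of genes with the longest exons had a median log2 deviation of -0.70 from the median library and the shortest 20% one of 0.52. In 12:12 female 6 these were -0.27 and 0.24. Rora has the longest exons of the members, and the part of exon length in its low levels was not tested. Leaving out both libraries gave a Rora difference of -0.09, an Nr1d2 difference of -0.63 and an Nr1d1 difference of 0.44, none past the threshold, with 112 genes called.

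**Figure D2:**
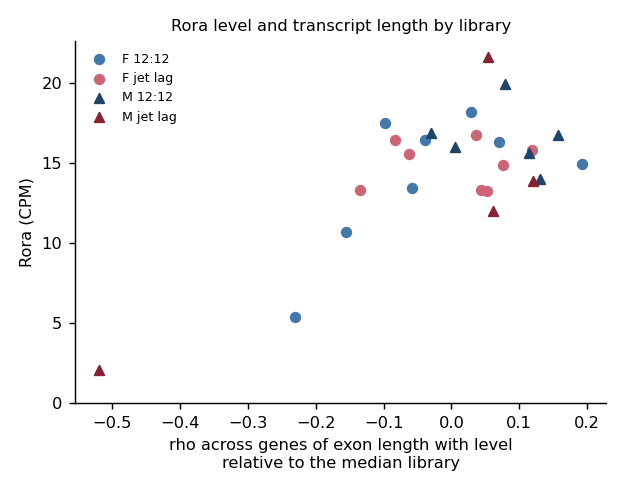
Rora level (y axis, CPM, starting at 0) against the Spearman rho across 14662 genes between exon length and the level relative to the median library (x axis, no unit), 1 point per library, circles for females (F) and triangles for males (M). Jet lag male 7 sits alone at -0.52 and 2.06 CPM, and 12:12 female 6 is next at -0.23 and 5.41 CPM.

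The 2 sexes were compared next. Under 12:12 lighting Nr1d1 was higher in females than in males by 0.97 on the log2 scale (SE 0.43, edgeR adjusted p = 0.247), with medians of 96.9 and 36.2 CPM, and under jet lag by 0.90 (SE 0.50, edgeR adjusted p = 0.392). In both lightings the ranges of the sexes overlapped. Nr1d2 differed by 0.22 (SE 0.31) and 0.71 (SE 0.37) and Rora by -0.34 (SE 0.29) and 0.13 (SE 0.33), female minus male, under 12:12 and jet lag in turn. No member passed, where 622 genes (3.68%) were called under 12:12 and 324 (1.92%) under jet lag. The response to jet lag was not shown to differ between the sexes, with female minus male values of -0.06 (SE 0.63) for Nr1d1, 0.49 (SE 0.48) for Nr1d2 and 0.47 (SE 0.44) for Rora. Single jet lag males moved these values: under jet lag the sex difference was 1.58 for Nr1d1 and 1.29 for Nr1d2 without number 5, 0.65 for Nr1d1 without number 6 and 0.47 for Nr1d2 without number 7. The response difference of Nr1d2 was 1.07 without number 5 and 0.25 without number 7, and that of Rora 1.004 without number 6 and 0.14 without number 7, none past the threshold. For that contrast 0 genes were called by edgeR, 902 had an unadjusted p below 0.05, and DESeq2 called 0 as well. Within females 0 genes were called by edgeR (772 at an unadjusted p of 0.05) and 55 by DESeq2, and within males 2 (0.0118%) and 94, no member among them in either tool.

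Although neither REV-ERB gene passed alone, their balance within a library shifted. The ratio of Nr1d1 to Nr1d2 counts in the same library needs no scaling between libraries. It ran from 1.02 to 2.16 in 12:12 females (median 1.72) and from 1.79 to 6.02 in jet lag females (median 3.21), and 7 of 8 jet lag females lay above every 12:12 female. In males it ran from 0.603 to 1.62 under 12:12 (median 0.808), and from 1.24 to 7.59 under jet lag (median 2.18), with 2 of 4 above every 12:12 male. All 12 jet lag libraries lay above the 12:12 median of their sex.

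The comparison of ratios was added after the values had been seen, so its p-values describe a pattern already visible. The mean log2 ratio was 0.62 ± 0.40 (SD, n = 8) under 12:12 and 1.74 ± 0.58 (SD, n = 8) under jet lag in females, a difference of 1.12 (two-sided exact permutation p = 0.000466, adjusted over 9 ratio tests 0.00210). In males the mean log2 ratio was -0.20 ± 0.53 (SD, n = 6) and 1.37 ± 1.17 (SD, n = 4), a difference of 1.57 (exact permutation p = 0.0143, adjusted 0.0321). Over both sexes the difference, permuted within sex, was 1.34 (exact permutation p = 1.78e-05, adjusted 0.000160). It stayed between 1.09 and 1.52 in the 26 fits without 1 library, each past the threshold. The male value alone passed in 2 of its 10 such fits, without 12:12 male 6 and without jet lag male 6. In the other 8 the adjusted exact permutation p ran from 0.0536 to 0.107. Jet lag male 7, whose long genes were low, had the highest ratio of all, 7.59, and the difference over both sexes was 1.09 without it. Without the 8 Cd79a-high libraries it was 1.39 (adjusted exact permutation p = 0.00557). In males alone it was 1.81 over the 4 and 3 libraries left, a number at which the adjusted exact permutation test could hardly pass (p = 0.193).

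**Figure D3:**
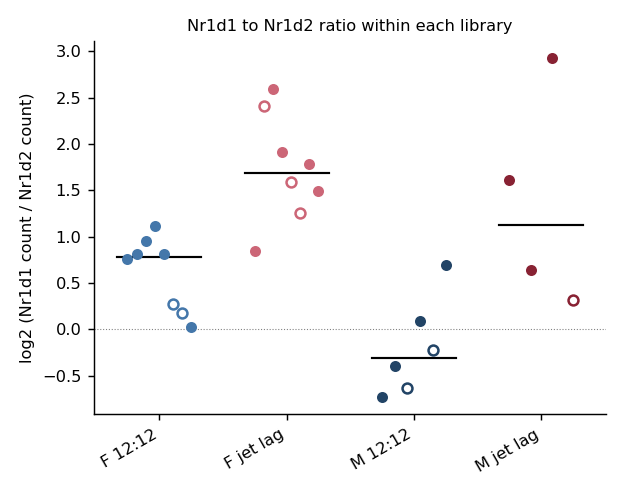
Log2 of the Nr1d1 count over the Nr1d2 count within each library (y axis, log2; the dotted line marks equal counts) for females (F) and males (M) under 12:12 and jet lag lighting; lines are group medians and open points have Cd79a at 8 CPM or more. Jet lag libraries sit higher in both sexes, with group means of 1.74 against 0.62 in females and 1.37 against -0.20 in males.

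The other pairs shifted less. Nr1d2 to Rora was lower under jet lag in females, by 0.62 on the log2 scale (exact permutation p = 0.00761, adjusted 0.0228), in 7 of 8 libraries, with median ratios of 3.68 under 12:12 and 2.81 under jet lag. Without the Cd79a-high libraries this was -0.58 (adjusted exact permutation p = 0.110). Nr1d1 to Rora differed by 0.50 in females and 1.30 in males, and neither passed (adjusted exact permutation p = 0.148 and 0.262). Without 12:12 female 4 the female value was 0.65 and passed (adjusted exact permutation p = 0.0347). The male value ran from 0.46 (without jet lag male 7) to 2.15 (without jet lag male 6) and did not pass. Over both sexes the difference was 0.90 (adjusted exact permutation p = 0.150), and it passed without jet lag male 6 (1.32, adjusted exact permutation p = 0.0171).

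Arntl, the gene that the receptors act on, was followed across the same libraries. It ran from 0.504 to 6.09 CPM in 12:12 females (median 0.876) and from 2.02 to 34.5 CPM in jet lag females (median 8.56). In 12:12 males it ran from 0.772 to 25.3 CPM (median 1.45), and the jet lag males had values from 5.19 to 23.5 CPM (median 16.7). All 12 jet lag libraries lay above the 12:12 median of their sex. The log2 difference was 2.29 (SE 0.58, edgeR adjusted p = 0.0636), just outside the threshold, while the authors' deposited table gives 1.97 with an adjusted p of 0.0469.

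Nr1d2 ran opposite to Arntl in every set of libraries examined. Across all 26 libraries Pearson's r of log2 CPM was -0.88 and Spearman's rho -0.93 (two-sided permutation p = 1e-05 each, the smallest that 100000 resamples give; adjusted over 21 relations 7e-05 and 0.000105). With the 4 group means removed r was -0.88 and rho -0.82. It was -0.96 (rho -0.87) within the 14 libraries under 12:12 and -0.83 (rho -0.88) within the 12 under jet lag. By group, exact permutation tests gave r = -0.94 in 12:12 females (rho -0.74), -0.86 in jet lag females (rho -0.79) and -0.97 in 12:12 males (rho -0.83), with adjusted p of 0.00469, 0.0109 and 0.0371 for r and of 0.0963, 0.0828 and 0.102 for rho. The 4 jet lag males are too few for a correlation. They had the lowest Nr1d2 where Arntl was 15.7 and 23.5 CPM (numbers 7 and 6) and the highest where Arntl was 5.19 CPM (number 5). Number 8 did not keep to that order, with 24.9 CPM of Nr1d2 at 17.7 CPM of Arntl, more Arntl than in number 7.

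The relation was weaker without libraries at the ends of the Arntl range. Without the 2 libraries farthest from the Arntl median, r for Nr1d2 was -0.85 over all libraries, -0.82 under 12:12 and -0.79 under jet lag, all past the threshold. In the single groups it was -0.63 in 12:12 females without 6 and 7 and -0.63 in jet lag females without 3 and 8 and no longer passed. Fewer libraries over a narrower Arntl range were left there, so how far the relation rests on those left out cannot be told. In 12:12 males it was -0.34 without 3 and 6, over 4 libraries, too few for a correlation.

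Nr1d1 followed the same relation within a lighting but not across them. Over all 26 libraries r was only -0.32 and rho -0.25 (permutation p = 0.114 and 0.217, adjusted 0.171 and 0.325). With the 4 group means removed r was -0.76 and rho -0.67 (permutation p = 4e-05 and 0.00014, adjusted 0.000168 and 0.000588). Under 12:12 r was -0.90 (rho -0.87), and -0.74 without 12:12 female 6 and male 3. Under jet lag r was -0.63 (permutation p = 0.0266, adjusted 0.0466) and rho -0.63 (permutation p = 0.0316, adjusted 0.0828), so the call held for r alone. It was -0.74 without jet lag females 3 and 8. The call was fragile: without 1 library r ran from -0.74 (jet lag female 3) to -0.55 (jet lag male 6) and did not pass in 9 of 12 fits, and with log2 of CPM plus 1 it was -0.60 (adjusted permutation p = 0.0635). In the groups r was -0.84 in 12:12 females (rho -0.74), -0.52 in jet lag females (rho -0.43, not passed) and -0.95 in 12:12 males (rho -0.83). The value in 12:12 females fell to -0.16 without libraries 6 and 7. That in 12:12 males was -0.85 over the 4 libraries left without 3 and 6, too few for a correlation. In levels, the 2 libraries with the most Arntl illustrate the gap between the lightings: 12:12 male 3 had 25.3 CPM of Arntl and 9.75 CPM of Nr1d1, and jet lag female 3 had 34.5 CPM of Arntl and 107 CPM of Nr1d1. They also differ in sex.

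Rora showed no relation to Arntl that passed in any of the 7 sets of libraries. Pearson's r was -0.26 (rho -0.21) over all 26, -0.21 (rho -0.11) with group means removed, -0.31 (rho -0.18) under 12:12 and -0.09 (rho 0.32) under jet lag, with permutation p from 0.208 to 0.810 for r. In 12:12 females r was -0.68 (rho -0.33, exact permutation p = 0.0690 and 0.428), and 0.33 without 6 and 7. In 12:12 males it was -0.53 (rho -0.43, exact permutation p = 0.279 and 0.419). The sign turned to positive in jet lag females, at 0.54 (rho 0.67, exact permutation p = 0.167 and 0.0831). Over all libraries without jet lag female 3 and jet lag male 6, r was -0.45 (permutation p = 0.0211, adjusted 0.0553).

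**Figure D4:**
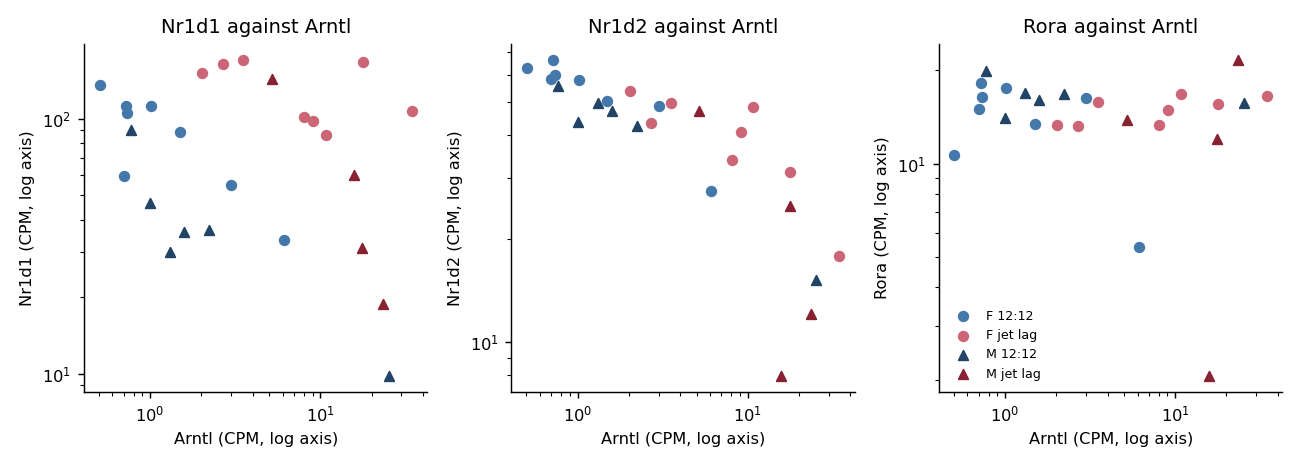
Level of Nr1d1, Nr1d2 and Rora (y axes, CPM, log scale) against Arntl (x axis, CPM, log scale), 1 point per library, circles for females (F) and triangles for males (M). Nr1d2 falls with Arntl along 1 band for both lightings (r = -0.88), Nr1d1 falls within each lighting (r = -0.90 and -0.63) but not across all libraries (r = -0.32), and Rora shows no slope that passed the test.

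The members also followed each other to unequal degrees. Nr1d1 and Nr1d2 correlated across all 26 libraries with r = 0.47 and rho = 0.41 (permutation p = 0.0155 and 0.0387, adjusted over 18 relations 0.0850 and 0.174) and under 12:12 with r = 0.87 and rho = 0.85 (adjusted permutation p = 0.00144 and 0.00324). Without 12:12 female 4 and male 3 the latter r was 0.71. Under jet lag, with both sexes pooled, r was 0.61 and rho 0.62, which did not pass. In jet lag females alone r was 0.27 and rho 0.14, not passed, and r was 0.67 without 1 and 6. The r over all 26 libraries was 0.20 without 12:12 male 3 and jet lag male 6. Nr1d1 and Rora had r = -0.00 over all libraries, and Nr1d2 and Rora 0.47 (rho 0.35), neither past the threshold after adjustment.

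Libraries rich in Cd79a were then set beside the rest. This split is made on a measured transcript and is a description with no test. In the 8 Cd79a-high libraries the summed level of 11 B-lineage markers was 43.3 to 410 CPM against 5.97 to 14.6 CPM in the other 18, with 10 of 11 markers higher by median and none at 0 in every library of either set. Macrophage and neutrophil markers were higher with them by median, all 6 of each list. The 6 macrophage and Kupffer cell markers summed to 359 to 1722 CPM against 188 to 402 CPM. The 6 neutrophil markers summed to 15.1 to 356 CPM against 3.50 to 12.1 CPM. Of the other blood cell lists, 4 of 4 erythroid markers were higher by median, but only 4 of 8 T and innate lymphoid cell markers. In bulk tissue, fewer cells of a type and less RNA per cell cannot be told apart.

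Pooled over the sexes, both REV-ERB transcripts had lower medians in the Cd79a-high libraries, with overlapping ranges, and the gap was wider under 12:12. Under 12:12 the 4 Cd79a-high libraries had 9.75 to 55.0 CPM of Nr1d1 (median 34.9) against 29.9 to 135 CPM in the other 10 (median 89.4). They had 15.1 to 48.7 CPM of Nr1d2 (median 35.0) against 43.8 to 66.3 CPM (median 56.9). Arntl went the other way without overlap, at 2.23 to 25.3 CPM against 0.504 to 1.58 CPM. Rora ran from 5.41 to 16.7 CPM (median 16.0) against 10.7 to 19.99 CPM (median 16.2). Within each sex the 2 Cd79a-high libraries under 12:12 had the lowest Nr1d2 of their group. For Nr1d1 the same held in females but not in males, where number 5, at 36.5 CPM, ranked 4 of 6 from the lowest.

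Under jet lag the ranges of the 2 sets overlapped for each member and for Arntl. The 4 Cd79a-high libraries had 31.0 to 167 CPM of Nr1d1 (median 99.9) against 18.8 to 170 CPM (median 126) in the other 8, and 24.9 to 41.0 CPM of Nr1d2 (median 32.6) against 7.95 to 53.6 CPM (median 45.2). Among jet lag females the Cd79a-high medians were lower for both, at 102 against 151 CPM of Nr1d1 and 33.9 against 48.2 CPM of Nr1d2. Jet lag male 8, the only Cd79a-high male there, had more Nr1d2 than the median of the other males (24.9 against 12.1 CPM). Its Nr1d1 was lower (31.0 against 60.4 CPM). Arntl was at 8.04 to 17.8 CPM against 2.02 to 34.5 CPM, and Rora at 12.0 to 15.6 CPM against 2.06 to 21.6 CPM.

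The relations to Arntl were recomputed without these libraries. For Nr1d2 over all libraries r stayed at -0.88 (adjusted permutation p = 0.0003). With group means removed it was -0.79 for Nr1d2 and -0.60 for Nr1d1 (adjusted permutation p = 0.0486 each). Under 12:12 alone it was -0.62 and -0.66, closer to 0 than the -0.96 and -0.90 with them. Under jet lag alone it was -0.85 and -0.72, no closer to 0 than with them. None of these 4 passed over the 10 and 8 libraries left (adjusted permutation p from 0.0507 to 0.125). The part of the blood cell content in these relations was not tested.

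The spread between animals under the same lighting was compared as well, from absolute deviations of log2 CPM from the group mean. The spread under jet lag minus that under 12:12 was -0.00 (SE 0.20) for Nr1d1, 0.16 (SE 0.16) for Nr1d2 and 0.13 (SE 0.20) for Rora. No gene of 16892 was called by limma, and 1344 had an unadjusted p below 0.05. On simulated data this test found 10% of genes whose SD was 3 times as large and 50.5% at 6 times, so a moderate difference would mostly have been missed.

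The genes most like each member across the 26 libraries were named from Pearson's r among 12700 genes with a mean of at least 1 CPM. These are descriptions over libraries that share scaling and group. For Nr1d2 they were Klhl21 (0.91), Narf (0.90), the D-box activator gene Dbp (0.89), Fnip2 (0.89) and Fnip1 (0.88), the last pair encoding partners of folliculin. Arntl was the most opposite of all 12700 genes to Nr1d2, followed by Chka (-0.87), which encodes choline kinase, and Sumo3 (-0.86). Tef, which like Dbp encodes a D-box activator, stood in place 6 (0.87) and the period gene Per3 in place 22 (0.81).

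For Nr1d1 the most alike genes were different ones: Trib3 (0.90), a pseudokinase gene, the caspase gene Casp6 (0.83), Klhl26 (0.83), Ephb6 (0.82) and Wbscr27 (0.82). The most opposite were Gusb (-0.79), which encodes β-glucuronidase, the nucleoporin gene Nup54 (-0.79) and the RNA polymerase II subunit gene Polr2b (-0.78). The clock repressor gene Cry1, a textbook REV-ERB target, stood in place 17 from the opposite end (-0.74), whereas for Nr1d2 it stood in place 319 (-0.56). For Rora they were Lrp6 (0.94), Lmbrd2 (0.94), Zyg11b (0.93), Tnks (0.93) and Vps13c (0.92), with exons of 8099 to 11527 bases. These values were lower, between 0.59 and 0.77, without the 2 libraries with low long genes. Spearman's rho over all libraries was 0.56 to 0.81. The most opposite to Rora were Gtf2h4 (-0.85), Timm50 (-0.84) and Klc3 (-0.84), with -0.47, -0.35 and -0.62 without both libraries.

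The genes around the receptors were grouped by role. Of 5 clock genes driven through the REV-ERB and ROR element, 1 rose. It was Npas2, the gene of the BMAL1 partner NPAS2, with a log2 difference of 4.30 (SE 0.74, edgeR adjusted p = 0.00371). Npas2 sat near the floor under 12:12, with a median of 0.0616 CPM and 4 of 14 libraries at 0. Under jet lag it ran from 0.204 to 8.83 CPM (median 0.645), so the size of its difference is uncertain. It met the count minimum of the filter through the jet lag libraries, where it was high. Its call is therefore a description and lends the list no support. The values of the other 4 were 2.29 for Arntl, 1.10 for Nfil3 (SE 0.30, adjusted p = 0.102), 0.85 for Clock (SE 0.22, adjusted p = 0.0740) and -0.20 for Cry1, none past the threshold. The median of the 5 was 1.10 beside 0.02 over all genes tested, and 0.444% of all genes were called higher. Under the same comparison the REV-ERB pair had values of 0.54 and -0.66.

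Of 11 clock genes driven through E-boxes and D-boxes, as Nr1d1 and Nr1d2 themselves are, 4 fell, where 0.337% of all genes were called lower. Per2 was lower by a log2 difference of -1.38 (edgeR adjusted p = 0.0133), Tef of -1.002 (0.0490), Ciart of -2.21 (0.0347) and Usp2, a deubiquitinase gene, of -1.90 (0.00518). All 11 values were below 0, with a median of -1.23. Nr1d2 had the sign of this list and Nr1d1 did not.

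**Figure D5:**
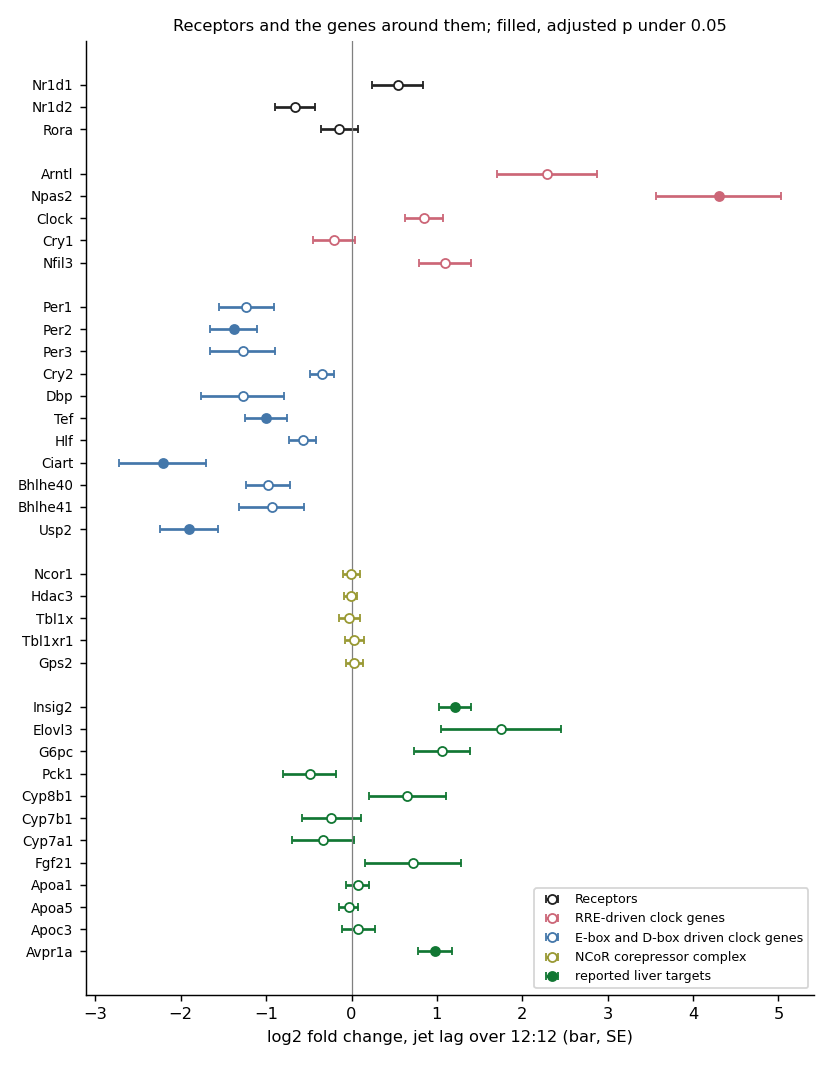
Log2 fold change of jet lag over 12:12 across both sexes (x axis, log2; bars are SE) for the receptor genes, clock genes of both kinds, NCoR complex genes and reported liver targets. Filled points passed an adjusted p of 0.05. The 3 receptor genes are open and lie between -0.66 and 0.54, the E-box and D-box genes are all below 0, and the 5 NCoR genes lie between -0.03 and 0.03.

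The partners of the receptors had small values, with 1 exception in heme synthesis. None of 5 NCoR complex genes passed, with values from -0.03 (Tbl1x) to 0.03 (Tbl1xr1) and a median of -0.00. None of 6 coactivator genes passed (median -0.13), with Ppargc1b, which encodes PGC-1β, at -0.52 (SE 0.19, edgeR adjusted p = 0.352), and none of 4 genes of receptor turnover (median -0.01). Of 10 genes of heme supply and breakdown, 1 fell, where 0.337% of all genes were called lower. It was Alas1, the gene of the enzyme that limits the rate of heme synthesis, with a difference of -1.47 (SE 0.31, edgeR adjusted p = 0.0167). Its level was 1093 ± 406 CPM in 12:12 females and 414 ± 184 CPM in jet lag females (SD, n = 8 each). The median of the 10 was 0.02.

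Of 12 liver genes reported as REV-ERB or ROR targets, 2 rose and none fell, where 0.444% of all genes were called higher and 0.337% lower. Insig2, whose product holds back SREBP processing, had a difference of 1.21 (SE 0.19, edgeR adjusted p = 0.00201), and Avpr1a, the vasopressin receptor gene, one of 0.98 (SE 0.19, adjusted p = 0.0116). Elovl3, a fatty acid elongase gene, had 1.75 (SE 0.70, adjusted p = 0.425) and G6pc, the glucose-6-phosphatase gene, 1.06 (SE 0.32, adjusted p = 0.159), neither past the threshold. The median of the 12 was 0.37 beside 0.02 over all genes tested, with 8 values above 0 and 4 below.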

How the data were processed

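Liver RNA of 26 libraries was analysed. The authors deposited estimated counts per gene name without normalization; STAR, DESeq2 and mm10 are named per the submitters' processing notes, while the sources used here name no counter, annotation or use of strand. Cells of 0.015 (45.8%) were set to 0, the 1.44% of cells that were not whole (tolerance 1e-06) were rounded, and 36930 lines were summed to 36883 names. Libraries of a group differed by at least 31.5 in chi-square per degree of freedom, so none was a copy. The log2 fold changes with their p-values in the authors' deposited table come from DESeq2 and are cited as theirs.

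Genes passed filterByExpr (count minimum 10) and TMM scaling in edgeR 4.0.16, with sex and lighting as terms for both sexes and group means elsewhere. P-values were adjusted by Benjamini and Hochberg. Spread used limma 3.58.1, and DESeq2 1.42.0 was an alternative. Log2 CPM used a prior count of 2. Tested on simulated data of the comparison over both sexes (16671 genes), 98% of changes of 2 on the log2 scale were found and 88% or 74% of changes of -1 or 1. The changed genes were drawn at random, each with its own spread. The rates thus describe typical genes and do not say how often such a change in the 3 members would be found. Correlations used scipy 1.17.1 with 100000 resamples, or exact pairings under 10 libraries. Positions and promoters are from RefSeq (GRCm38.p6), exon lengths from GENCODE on GRCm38. All 3 members matched.

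The members and gene lists were chosen with earlier results of these data known, and some list genes are not reported here. Named genes were the members, Arntl, Cd79a, genes overlapping a member, list genes (those past the threshold first), and per member the 5 most alike and 3 most opposite genes. Same-numbered libraries did not pair (correlation over 0.1 in 6 of 10 pairs). Marker lists for hepatocytes, T and innate lymphoid cells, erythroid, stellate, endothelial and bile duct cells were summed as well. Only 2 of 6 hepatocyte markers were higher by median in the Cd79a-high libraries, so the hepatocyte sums do not stand for most of that list. Of the other lists, 4 of 8 T and innate lymphoid, 4 of 4 erythroid, 5 of 6 stellate, 4 of 5 endothelial and 2 of 4 bile duct markers were higher. In Cd79a-high against other libraries the sums ran from 2.13 to 19.8 against 1.44 to 7.50 CPM for T and innate lymphoid cells, 609 to 6893 against 433 to 2499 for erythroid cells, 270 to 466 against 121 to 332 for stellate cells, 230 to 358 against 141 to 322 for endothelial cells, 3.52 to 8.74 against 4.18 to 15.7 for bile duct cells and 166079 to 244005 against 134616 to 178038 for hepatocytes.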

Additional observations from a re-analysis of the deposited data

Results flagged for a closer look

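In 2 libraries under 12:12 lighting Nr1d2 and Arntl both stood apart from the rest of the group, by the gap to the nearest library as a share of the whole range (Dixon's criterion at 95%). 12:12 female 6 had 27.4 CPM of Nr1d2 against 48.7 to 66.3 CPM in the other 7, and 6.09 CPM of Arntl against 0.504 to 3.00 CPM. 12:12 male 3 had 15.1 CPM of Nr1d2 against 42.6 to 55.8 CPM in the other 5, and 25.3 CPM of Arntl against 0.772 to 2.23 CPM. Both libraries are among the 8 with Cd79a at 8 CPM or more, and the part of the blood cell content was not tested. In all, 20 sets of values (3 members, Arntl and the Nr1d1 to Nr1d2 ratio in 4 groups) were examined, the genes as CPM and the ratio as log2. Chance flags about 1 in 20 if values are normally distributed, which CPM need not be. The 4 flags come from 2 libraries and from 2 genes that ran opposite to each other, so they are not independent.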

How the results depend on the processing

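None of the 3 members passed the threshold in any of the 699 values that alternative settings gave for the 7 comparisons, and Nr1d2 kept its sign throughout. Both the libraries used and DESeq2 in place of edgeR moved the counts of called genes more than the scaling did. Over both sexes the count of 132 became 274 with DESeq2, 381 without the Cd79a-high libraries and 283 with Cd79a as a covariate, and it ran from 70 (without jet lag female 3) to 244 (without jet lag male 8) when 1 library was left out. In females the count of 0 became 55, 13 and 28 in the same 3 settings, 14 with females fitted alone and 0 to 13 without 1 library. In males the count of 2 became 94, 219 and 61, 0 with DESeq2 size factors, 0 with males fitted alone, 0 without 12:12 female 6 and jet lag male 7 together and 0 to 106 without 1 library. Females against males gave 977, 1357 and 1305 under 12:12 (346 to 848 without 1 library) and 650, 1902 and 898 under jet lag (194 to 967). The spread test called 3 genes without the Cd79a-high libraries, no member among them. The cause of these shifts was not tested. A replicate block on the numbers was also tried, although they were not shown to pair the libraries. Same-numbered libraries had r from -0.38 to 0.60, and in 1 of 10 pairs the 12:12 library correlated best with its own number. With the block the counts were 19 in females and 4 in males. Rora over both sexes was then 0.079, Nr1d1 in males -0.10 and the female minus male response of Nr1d1 0.72.

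None of the values of the 3 members that turned sign had passed the threshold. The female minus male response of Nr1d1 was 0.14 with limma-voom, 0.025 with Cd79a as a covariate and -0.43 to 0.62 without 1 library. Nr1d1 in males was -0.10 to 0.96 without 1 library. Rora in females was -0.077 without the Cd79a-high libraries, -0.086 without 12:12 female 6 and jet lag male 7, and -0.087 to 0.11 without 1 library. Rora in females against males under jet lag was -0.19 without those 2 libraries and -0.20 to 0.67 without 1. The spread value of Nr1d1 was 0.30 without the Cd79a-high libraries, 0.0050 from the group median, 0.17 without the 2 libraries and -0.14 to 0.12 without 1, and that of Rora was -0.11 to 0.29. The relation of Rora to Arntl without the Cd79a-high libraries was 0.057 with group means removed, 0.37 under 12:12 and 0.33 in 12:12 females, and without 1 library it ran from -0.28 to 0.44 under jet lag and from -0.87 to 0.061 in 12:12 females, where it passed without library 4. Without 1 library the relation of Nr1d2 with group means removed ran from -0.92 to -0.83 and that of Nr1d1 from -0.80 to -0.66, all past the threshold. The male Nr1d2 to Rora ratio ran from -0.60 to 0.33. The 4 jet lag males limit every male value, and the lack of a collection time limits all comparisons of clock genes.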
